A study of Rattus norvegicus with 9 samples.

Results

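Nuclear-encoded subunits of oxidative phosphorylation were followed in the pubococcygeus, a muscle of the rat pelvic floor, across 9 RNA-seq libraries. The list held 38 gene symbols covering complexes I to V and the carrier cytochrome c. Rows were found for 36 of them among the 30518 rows of the deposited tables, and all 36 passed the filter on low counts. They comprised 14 genes of complex I, 4 of complex II, 5 of complex III, 6 of complex IV, 6 of complex V and Cycs. Ndufa10 and Cox8b had no row under their symbols and are not analysed here. Where a symbol was repeated (Ndufa5, Atp5f1b and Atp5mc1), the row with the highest mean count was taken.

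Oxidative phosphorylation takes place in the inner mitochondrial membrane. Complexes I and II take electrons from NADH and succinate, complex III passes them to cytochrome c, and complex IV hands them to oxygen, while complexes I, III and IV pump protons that drive ATP synthesis by complex V. Most subunits are encoded in the nucleus and a few in the mitochondrial genome, so each complex except complex II is built from both, and muscle fibres rely on the pathway for sustained contraction.

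All animals were female Sprague-Dawley rats, 24 in the study and 8 in each of 3 groups. Blank rats had neither surgery nor treatment. SUI rats were a model of stress urinary incontinence: both ovaries were removed and the vagina was distended for 4 h by a balloon (catheter size 8 Fr, 3 mL of saline) carrying a weight of 120 g. Stimulated rats underwent the same ovariectomy and distension, and from 1 week later received electrical stimulation of the pelvic floor through the vagina (50 Hz, 20 mA, 200 µs monophasic square pulses) for 30 min on 5 days per week over 2 weeks. Ovariectomy and distension were thus shared by SUI and stimulated rats and cannot be told apart in any comparison with blank. The sources used here give no age. Each group had 3 libraries. The labels number the libraries of a group and do not say how they relate to its rats, so p-values measure only the spread between these libraries.

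Total counts ran from 50833480 to 147650284 per library. The 7 fibre markers (among them Acta1, Ckm and Myh2) were detected in every library, with a summed level from 102770 to 183660 CPM (counts scaled to a common library size with TMM factors). Blank replicate 1 had the fewest counts and 32.9% of them came from the mitochondrial genome, against 13.4% to 17.7% in the other libraries. SUI replicate 1 had the lowest fibre marker sum. Where leaving out either library moved a median or a gene's log2 fold change given here by over 1.5 times or turned its sign, the value without it follows. Because whole muscle was sequenced, fewer fibres and less RNA per fibre cannot be told apart.

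Some rows may not hold the gene their symbol names. The row called Uqcrb spans 336 bases of chromosome 1 (mRatBN7.2, 133425150 to 133425485) and lies beside Polg and Atp5mpl, while in RefSeq (GRCr8) Uqcrb lies between Sdr9c7 and Mterf3. It was the only one of the 36 members on another chromosome than its RefSeq entry. Its level was 1.08, 0.873 and 0.734 FPKM in blank, 0.851, 0.740 and 1.09 in SUI and 0.885, 1.05 and 1.11 in stimulated muscle, so it gives little information on this ubiquinone-binding subunit of complex III. Cox7a1, the heart and muscle isoform of a small complex IV subunit, lay beside its RefSeq neighbours Zfp146 and Capns1, yet its level was only 0.903, 0.575 and 0.760 FPKM in blank, 1.10, 0.642 and 1.66 in SUI and 0.640, 1.32 and 1.15 in stimulated muscle. Why that row is low was not tested. Many of these genes also have processed copies in the genome, among which estimated counts may be split, so small differences between members are uncertain.

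Some short motifs, CGGAAG and GCATGCGC among them, stood in a larger share of member promoters than of all promoters. In the 250 bases before the start used in RefSeq's promoter table (GRCr8), 34 of the members had an entry. This window was chosen after counts in longer windows were seen. It ended directly before the gene's RefSeq start in 19339 of the 33469 promoters, and elsewhere in the others. The letters CGGAAG, the core bound by ETS factors such as GABP, stood on either strand in 16 of 34 member promoters (47.1%), in 13.9% of all 33469 promoters and in 16.8% of the 21851 promoters of protein-coding genes. By complex they stood in 5 of 14 promoters of complex I, 3 of 4 of complex II, 2 of 3 of complex III, 2 of 6 of complex IV and 4 of 6 of complex V. The core GCATGCGC is part of the site of NRF1, a factor known for respiratory genes. It stood in 4 of 34 (Cycs, Sdhb, Uqcrc1 and Atp5po), in 2.2% of all promoters and in 2.84% of those of protein-coding genes. Median GC content was 57% in member promoters and 51.2% in all promoters.

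Another 8 strings were searched on both strands, so 10 in all. The full NRF1 palindrome, which contains the NRF1 core, was found in 1 of 34 member promoters and 0.762% of all. The longer ETS string CCGGAAGT, which contains CGGAAG, was found in 3 and in 3.1% of all. AAGGTCA, the core of the site of ERR factors, was found in 1 and in 3.99% of all, and TCAAGGTCA, which contains it, in 0 and in 0.388%. TGACGT, the core of the CRE, was found in 3 and in 6.95% of all, and the full palindrome TGACGTCA in 0 and in 1.59%. The CCAAT box CCAAT was found in 10 (34% of all promoters) and the GC box GGGCGG in 10, or 29.4% of members (30.5% of all). Over promoters of protein-coding genes the shares were 35% for CCAAT and 38.9% for GGGCGG. For the NRF1 palindrome and CCGGAAGT they were 0.975% and 3.94%. For AAGGTCA and TCAAGGTCA they were 3.3% and 0.32%, and for TGACGT and TGACGTCA 7.9% and 1.89%. A match describes the letters only.

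The promoters printed here belong to Ndufa1 and Cox5b, the members with the smallest p with stimulation, to Sdhb, which holds both the ETS and the NRF1 core, and to Cox6a2, the muscle isoform, which holds neither. Capitals mark CGGAAG (or CTTCCG, its reverse complement) and GCATGCGC. Of these windows only that of Ndufa1 ends directly before the gene's RefSeq start. All are written 5′ to 3′ on the gene's strand from GRCr8: Ndufa1 from chrX:121293556-121293805 (minus strand), Cox5b from chr9:46417587-46417836 (plus), Sdhb from chr5:158547684-158547933 (plus) and Cox6a2 from chr1:192219717-192219966 (minus).
Ndufa1: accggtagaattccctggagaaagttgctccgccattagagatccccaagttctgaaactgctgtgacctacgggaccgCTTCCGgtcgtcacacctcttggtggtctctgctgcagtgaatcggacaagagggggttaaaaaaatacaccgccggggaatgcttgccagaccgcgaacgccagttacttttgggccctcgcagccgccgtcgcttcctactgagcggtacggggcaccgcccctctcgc
Cox5b: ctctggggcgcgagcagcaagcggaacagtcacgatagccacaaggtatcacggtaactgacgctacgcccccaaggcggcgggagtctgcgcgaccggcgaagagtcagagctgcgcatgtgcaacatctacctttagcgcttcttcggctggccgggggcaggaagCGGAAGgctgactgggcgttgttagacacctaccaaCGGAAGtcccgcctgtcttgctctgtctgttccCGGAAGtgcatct
Sdhb: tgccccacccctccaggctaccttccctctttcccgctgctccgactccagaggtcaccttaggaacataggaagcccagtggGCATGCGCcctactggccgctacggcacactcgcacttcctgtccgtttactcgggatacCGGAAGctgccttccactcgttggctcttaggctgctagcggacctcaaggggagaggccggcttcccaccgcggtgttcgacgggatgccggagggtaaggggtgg
Cox6a2: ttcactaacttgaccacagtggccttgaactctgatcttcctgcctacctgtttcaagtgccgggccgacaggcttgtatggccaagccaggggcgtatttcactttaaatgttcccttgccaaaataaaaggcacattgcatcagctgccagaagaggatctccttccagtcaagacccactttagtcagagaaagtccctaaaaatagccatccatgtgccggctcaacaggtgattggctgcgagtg
Cox5b holds CGGAAG at 3 places within the last 82 bases of its window, and Ndufa1 holds it once, beginning 171 bases before the end of its window.

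Levels differed widely among members on the deposited FPKM scale, which corrects for gene length. The median over 9 libraries was 105 FPKM for complex I genes (from 32.7 for Ndufa1 to 223 for Ndufv2) and 160.4 for complex II (122.6 for Sdhb to 169 for Sdhd). It was 206 for complex III, 241 for complex IV and 284 for complex V. Most abundant were Atp5f1b, the catalytic beta subunit of ATP synthase, at 1202 FPKM, and Cox6a2, the heart and muscle isoform of a complex IV subunit, at 1091 FPKM. Its partner Cox6a1, the isoform of most other tissues, had a median of 30.9 FPKM, and Cox7a2, the partner of Cox7a1, had 8.46 FPKM in a row that lies away from its RefSeq neighbours. These medians order the complexes as sampled by this list and not their protein content.

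**Figure D1:**
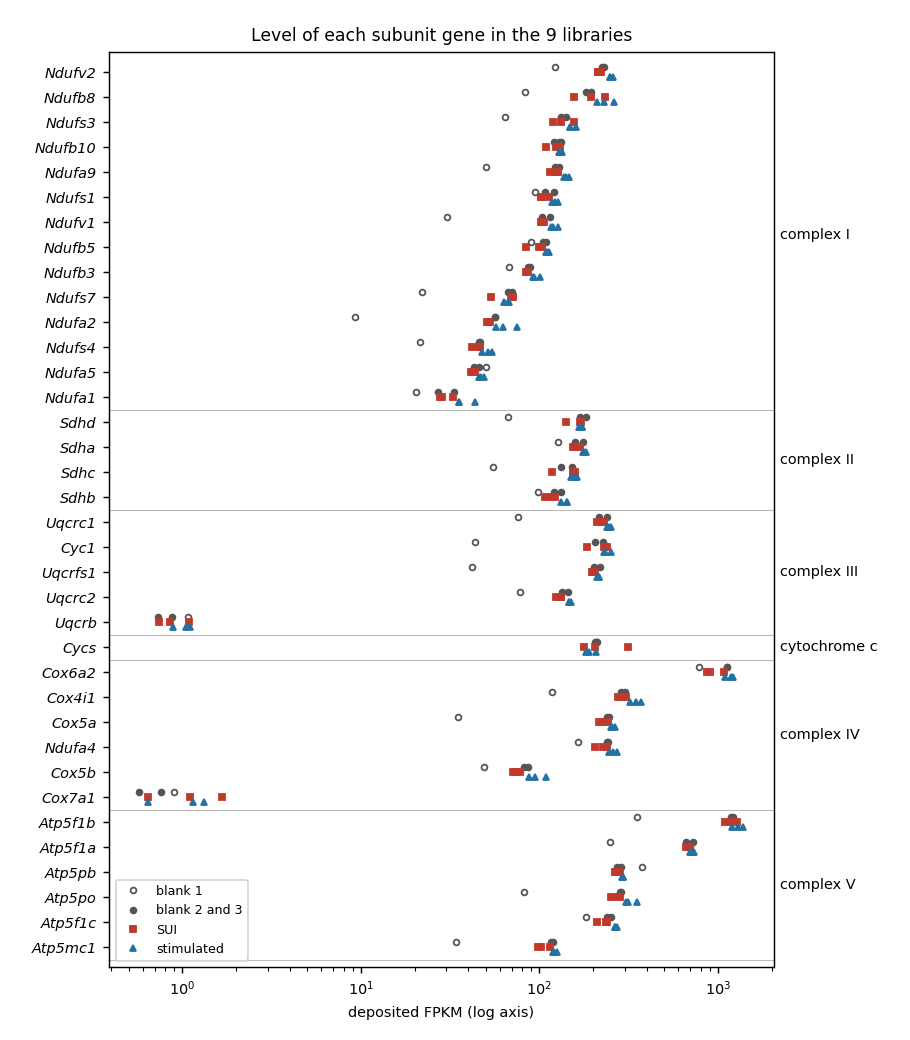
Deposited FPKM (log axis) of each of the 36 subunit genes in the 9 libraries, grouped by complex, with blank 1 drawn as an open circle. Atp5f1b and Cox6a2 lie near 1000 FPKM, Uqcrb and Cox7a1 near 1, and blank 1 lies left of the other libraries for many genes.

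Blank replicate 1 differed from the other libraries gene by gene and not by a common factor. Among the 34 members with a mean of at least 10 CPM, its level ranged from 0.199 to 1.89 times the median of the other 8 libraries. It was the lowest of the 9 libraries for 18 members and the highest for 5. Cox5a, chosen here as the lowest after its values were seen, stood at 55.6, 262 and 274 CPM in the 3 blank libraries. Atp5pb, the highest, stood at 766, 405 and 397 CPM. Over 2-fold below that median were 12 of 34 members, against 13.3% of all 6663 genes of at least 10 CPM. The SD of the members' log2 deviations was 0.73 in blank 1 and 0.086 to 0.16 in the others. Across the 34 genes its ratio had a Spearman rho of 0.072 with gene length, given as a description.

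SUI replicate 1 differed in another way. All 34 members lay below the median of the other 8 libraries there, at 0.564 to 0.838 times its value, and they did so together. Its TMM factor was the highest, 1.3, and as a share of counts outside the mitochondrial genome they took 1.47%, the lowest of the 3 SUI libraries, which reached 1.5%.

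**Figure D2:**
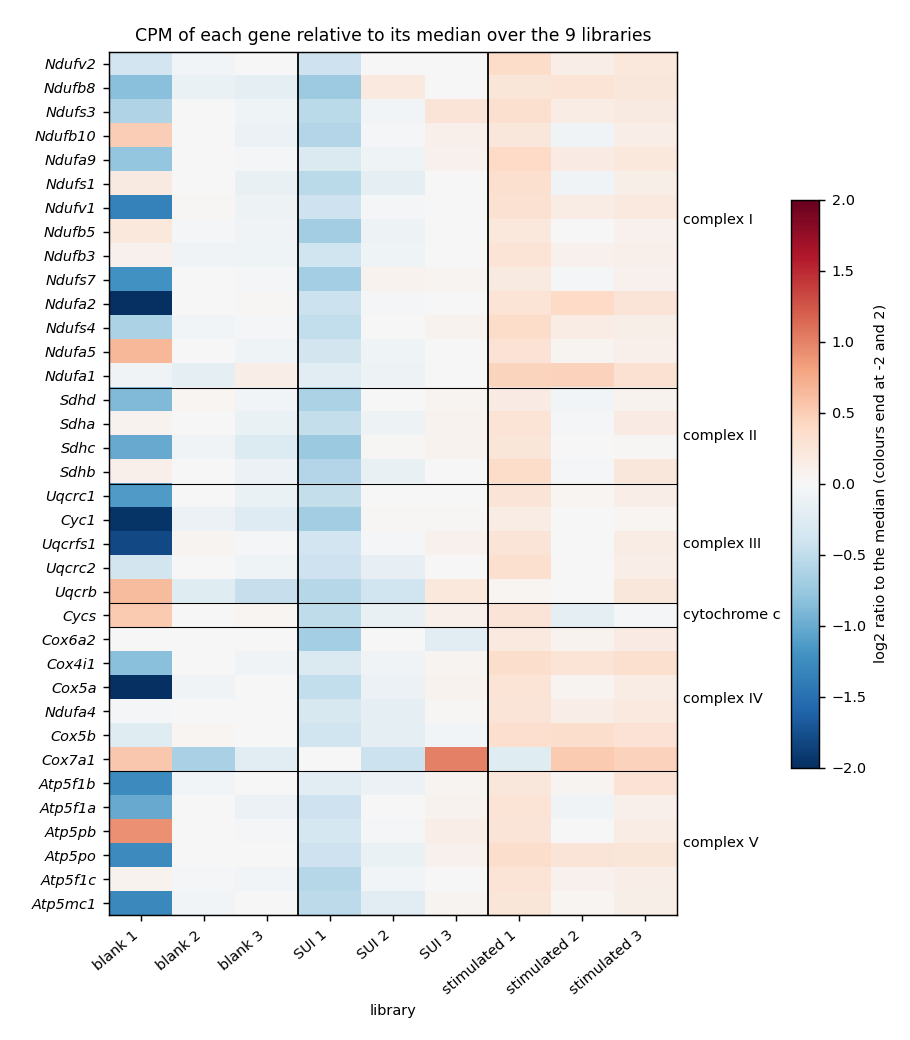
Log2 ratio of CPM to each gene's median over the 9 libraries, with genes in rows by complex and libraries in columns by group (colours end at -2 and 2). Blank 1 mixes values far below the median with values above it, SUI 1 has no gene above its median, and the stimulated libraries are mostly pale red.

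With stimulation, members lay slightly above SUI, and no member passed the test. The edgeR log2 fold change of stimulated over SUI was positive for 35 of 36 members, where 52.6% of all 16256 genes tested were positive. The median was 0.32 over members and 0.02 over all genes. In 17 of 36 members every stimulated library exceeded every SUI library, against 9.52% of all genes tested, and in 0 of 36 the order was the opposite (9.28% of all genes). At an adjusted p under 0.05 edgeR's quasi-likelihood test called 0 of 36 members (0.0123% of all genes, that is 2 genes). At an unadjusted p under 0.05 it gave 2 of 36, both higher, against 5.23% of all genes, and 0 of 36 lower (2.77%), with 8% of all genes in either direction. Among genes with a mean of at least 10 CPM, 34 of 34 members were positive (44.7% of such genes) and 17 of 34 did not overlap (8.58%). DESeq2 and limma-voom with sample weights also called 0 of 36 members at an adjusted p under 0.05, where they called 208 and 48 genes in all. The smallest adjusted p of a member was 0.076 with DESeq2, 0.101 with limma-voom and 0.507 with edgeR.

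The size of this difference depended on SUI replicate 1. Without it the median over members was 0.20, with 35 of 36 positive and 17 of 36 without overlap, where the share of all genes was 16.3%. The number of members without overlap was 28 without SUI replicate 3 (15.8% of all genes) and 31 without stimulated replicate 2 (13.5%). On the deposited FPKM scale the median was 0.19 with 34 of 36 positive, and 24 of 36 did not overlap (5.39% of all genes). On library totals alone the median was 0.21, while the median of all genes moved to -0.11, and 27 of 36 did not overlap (5.81% of all genes).

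**Figure D3:**
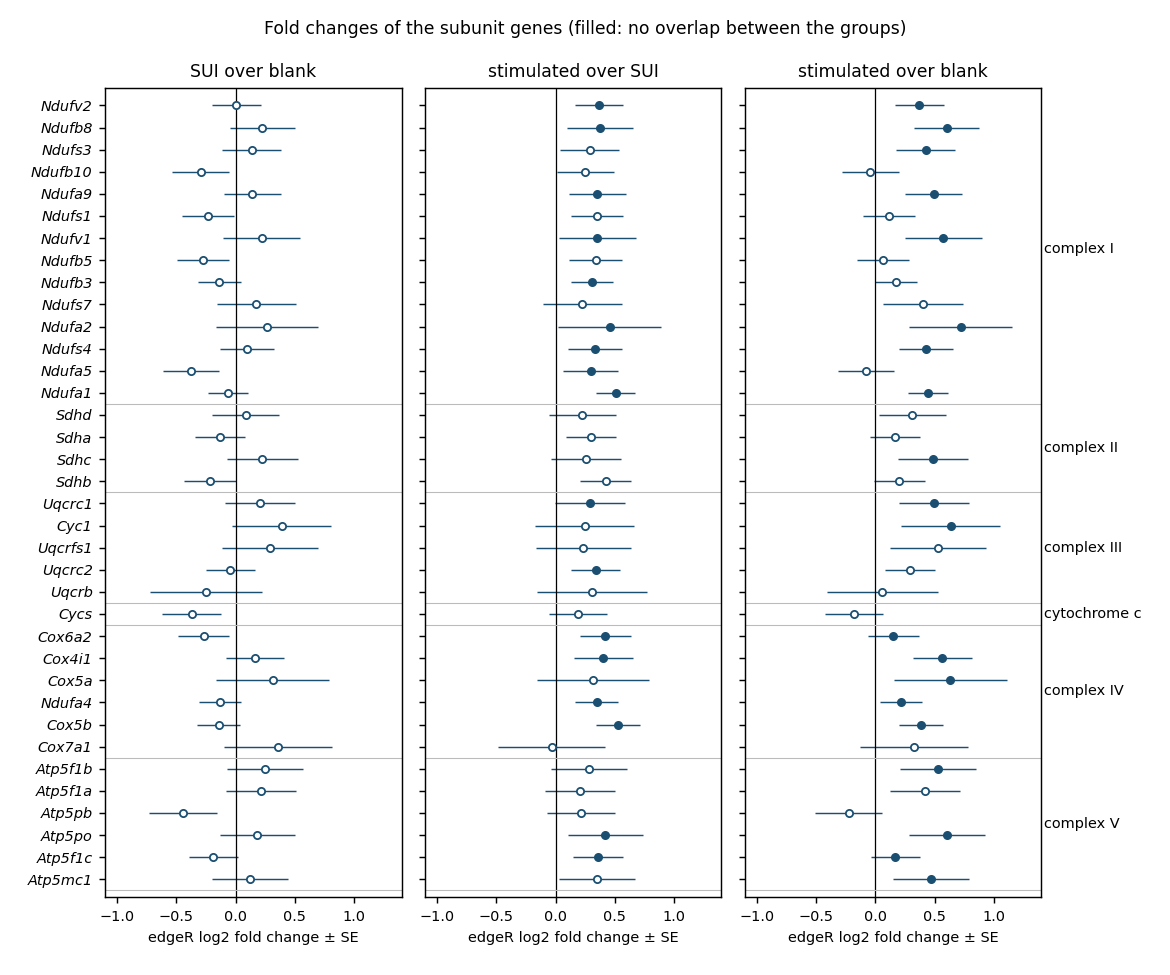
edgeR log2 fold change ± SE of each subunit gene for SUI over blank, stimulated over SUI and stimulated over blank, with filled points where the CPM of the groups does not overlap. The middle panel lies right of 0 for 35 of 36 genes, and the left panel scatters on both sides.

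On TMM-scaled counts SUI muscle did not differ from blank in a common direction. The log2 fold change was positive for 20 of 36 members (50.8% of all genes), with a median of 0.09 against 0.01 for all genes. No member lay wholly above or below blank, that is 0 of 36 in each direction, against 7.34% and 7.77% of all genes. edgeR called 0 of 36 (0% of all genes), and 0 of 36 had an unadjusted p under 0.05 (8.18% of all genes, 2.84% higher and 5.34% lower). Among genes of at least 10 CPM, 19 of 34 members were positive (54.6% of such genes) and 0 of 34 lay wholly above blank (9.02%). DESeq2 and limma-voom with sample weights called 0 of 36 too, where DESeq2 called 176 genes in all. Without blank replicate 1 only 5 of 36 were positive and the median was -0.09, and without SUI replicate 1 the median was 0.22. On the deposited FPKM scale 28 of 36 were positive (pseudocount of 1), and the median reached 0.32 (pseudocount of 0.1). The median of all genes was at most 0.19 in any alternative setting. Without SUI replicate 1, 7 of 36 members lay wholly above blank (15.4% of all genes), and without SUI replicate 3, 8 of 36 lay wholly below it (11.7% of all genes).

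Stimulated muscle was compared with blank as well. This comparison shares its stimulated libraries with the comparison against SUI, and both comparisons with blank share blank replicate 1. Positive were 32 of 36 members (54.3% of all genes), with a median of 0.39 against 0.04 for all genes. In 20 of 36 every stimulated library exceeded every blank library (7.9% of all genes), and in 0 of 36 every one was lower (4.72%). edgeR called 0 of 36 (0.00615% of all genes), and 2 of 36 had an unadjusted p under 0.05 (3.77% of all genes), both higher (1.96% of all genes higher and 1.81% lower). Among genes of at least 10 CPM, 30 of 34 members were positive (51.6% of such genes) and 20 of 34 did not overlap (8.81%). DESeq2 and limma-voom called 0 of 36, where DESeq2 called 21 genes in all. Without blank replicate 1 the median was 0.20.

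Complex I oxidises NADH. All 14 of its members had a positive log2 fold change with stimulation (0.23 to 0.51, median 0.34), and 9 of 14 did not overlap with SUI (9.52% of all genes). Without SUI replicate 1 the 14 ran from 0.027 to 0.46 (median 0.21). Ndufa1, an accessory subunit of the membrane arm encoded on the X chromosome (mRatBN7.2, chromosome X, 116424223 to 116428633), stood at 39.7, 36.4 and 45.3 CPM in blank, 35.9, 38.9 and 41.5 in SUI and 56.8, 57.2 and 51.2 in stimulated muscle. Its 3 stimulated libraries lay above all 6 others. The log2 fold change was 0.51 ± 0.17 against SUI (edgeR adjusted p = 0.507) and 0.44 ± 0.17 against blank (edgeR adjusted p = 0.898). SUI against blank gave -0.06 ± 0.17, and from -0.13 (without blank 2) to 0.027 (without blank 3) when 1 library was left out, with -0.025 without SUI 1.

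Against SUI, the other complex I genes had smaller log2 fold changes than Ndufa1. Ndufv2, an iron-sulphur subunit of the NADH-oxidising module and the most abundant complex I member, stood at 180.2, 226 and 235 CPM in blank, 176, 235 and 234 in SUI and 302, 256 and 272 in stimulated muscle. It did not overlap between SUI and stimulated muscle (0.37 ± 0.21, adjusted p = 0.713). Ndufb8, an accessory membrane subunit often used as a marker of assembled complex I, stood at 102, 167 and 158 CPM in blank, 110.0, 208 and 182 in SUI and 215, 221 and 214 in stimulated muscle, and SUI replicate 1 lay far below the other SUI libraries. Its lowest stimulated library lay above the highest SUI library, with 0.38 ± 0.27 (adjusted p = 0.787). That value was 0.16 without SUI replicate 1 and 0.57 without SUI replicate 2.

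Ndufa9, an accessory subunit at the junction of the complex's arms, stood at 117, 201 and 196 CPM in blank, 165, 189 and 212 in SUI and 264, 226 and 233 in stimulated muscle. Stimulated libraries lay above all others, by 0.35 ± 0.24 against SUI and 0.49 ± 0.24 against blank, the latter 0.26 without blank 1. Ndufa5, an accessory subunit, stood at 179.8, 113 and 107 CPM in blank, 88.3, 107 and 114 in SUI and 139, 118 and 122 in stimulated muscle, and Ndufb5, a membrane-arm subunit, at 176, 147 and 143 CPM in blank, 93.2, 141 and 151 in SUI and 175, 151 and 161 in stimulated muscle. In both, blank 1 was the highest of all 9 libraries, and SUI over blank gave -0.37 ± 0.24 and -0.28 ± 0.22. Without blank 1 these were -0.087 and -0.17, and Ndufb5 was -0.10 without SUI 1. The other 8 members of complex I (Ndufa2, Ndufb3, Ndufb10, Ndufs1, Ndufs3, Ndufs4, Ndufs7 and Ndufv1) had log2 fold changes from 0.23 to 0.46 with stimulation.

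Complex II, succinate dehydrogenase, is also an enzyme of the citric acid cycle. Its 4 members had log2 fold changes from 0.23 to 0.42 with stimulation (median 0.28). In 0 of 4 did the groups separate, against 9.52% of all genes higher and 9.28% lower. Without SUI replicate 1 the median was 0.11, and without blank 1 and SUI 1 it was 0.10. Sdhb, the iron-sulphur subunit, stood at 312, 290.5 and 268 CPM in blank, 193, 262 and 293 in SUI and 374, 287 and 340.2 in stimulated muscle. Stimulated replicate 2 lay within the SUI range, and the log2 fold change of 0.42 ± 0.22 did not pass (edgeR adjusted p = 0.694). Without SUI 1 it was 0.28. Sdha, the flavoprotein that oxidises succinate, stood at 597, 566 and 517 CPM in blank, 408, 531 and 592 in SUI and 686, 559.5 and 635 in stimulated muscle, with overlap between all groups.

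Complex III carries electrons from ubiquinol to cytochrome c. Its 5 members had log2 fold changes from 0.24 to 0.34 with stimulation (median 0.29). In 2 of 5 the stimulated libraries lay wholly above SUI (9.52% of all genes). Without SUI replicate 1 the median was 0.15. Uqcrc1, a core protein of the complex and its most abundant member here, stood at 197, 429.6 and 396 CPM in blank, 311, 432 and 436 in SUI and 518, 446 and 476 in stimulated muscle. Its stimulated libraries lay above the others, at 0.29 ± 0.30 against SUI (adjusted p = 0.876), and 0.15 without SUI 1. Uqcrfs1, the Rieske iron-sulphur protein, and Cyc1, the cytochrome subunit, were among the members furthest down in blank 1, at 0.285 and 0.291 times the mean of blank 2 and 3. Their log2 fold changes of SUI over blank were 0.29 ± 0.40 and 0.39 ± 0.42, and without blank 1 -0.093 and 0.0087.

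Cytochrome c, the mobile carrier between complexes III and IV encoded by Cycs, stood at 633, 440.1 and 452 CPM in blank, 310.4, 395 and 472 in SUI and 526, 383 and 435 in stimulated muscle. All groups overlapped, and the log2 fold change was 0.19 ± 0.25 with stimulation and -0.37 ± 0.25 for SUI over blank. With stimulation it was 0.055 without SUI 1, 0.35 without SUI 3, 0.059 without stimulated 1 and 0.29 without stimulated 2. For SUI over blank it was -0.17 without blank 1 and -0.24 without SUI 1. On the deposited FPKM scale SUI replicate 2 stood apart at 314.5, with the other 8 libraries from 177.9 to 209, and on that scale the log2 difference of stimulated over SUI was -0.22.

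Complex IV, cytochrome c oxidase, had the largest median with stimulation, 0.38, against 0.34 for complex I. Without SUI replicate 2 this order turned, with 0.37 for complex IV and 0.38 for complex I. Of the 6 complex IV members, 5 were positive and 4 did not overlap with SUI (9.52% of all genes). Cox5b, a zinc-binding subunit, stood at 142, 174 and 168 CPM in blank, 128, 149 and 162 in SUI and 212, 216 and 205 in stimulated muscle. All 3 stimulated libraries lay above the other 6, by 0.53 ± 0.18 against SUI (edgeR adjusted p = 0.513). Cox6a2 stood at 613, 606 and 612 CPM in blank, 382, 606 and 529 in SUI and 700.4, 645 and 687 in stimulated muscle. SUI replicate 1 was far below the rest, and the stimulated libraries exceeded all others, by 0.42 ± 0.22 against SUI (edgeR adjusted p = 0.685). Without SUI 1 this was 0.26.

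Cox4i1, a subunit on which the regulation of the enzyme by ATP is known to act, stood at 229.7, 409 and 391 CPM in blank, 336, 389 and 427 in SUI and 519.6, 493 and 511 in stimulated muscle. No stimulated library overlapped with either other group, with 0.40 ± 0.25 against SUI and 0.56 ± 0.25 against blank (edgeR adjusted p = 0.898). The value against blank was 0.32 without blank 1. Ndufa4, named for complex I and now placed in complex IV, stood at 233, 237 and 239 CPM in blank, 192, 211 and 243 in SUI and 286, 262 and 273 in stimulated muscle, with 0.35 ± 0.18 against SUI (adjusted p = 0.692). It too separated stimulated muscle from all other libraries. Cox7a1 was the only member with a negative log2 fold change with stimulation (-0.03 ± 0.45, -0.16 without SUI 1, 0.49 without SUI 3 and 0.17 without stimulated 1), at 1.71, 1.27 and 3.43 CPM in SUI and 1.45, 2.47 and 2.35 CPM in stimulated muscle. Among partner isoforms, Cox6a1 stood at 7.07, 20.4 and 17.6 CPM in blank, 17.7, 23.2 and 21.6 in SUI and 20.6, 26.7 and 20.6 in stimulated muscle, with overlap and 0.12 ± 0.34, which was 0.026 without SUI 1 and -0.014 without stimulated 2. Cox7a2 stood at 4.29, 4.45 and 4.93 CPM in blank, 3.66, 3.66 and 4.69 in SUI and 5.79, 6.89 and 5.79 in stimulated muscle, and its stimulated libraries lay above the other 6, by 0.62 ± 0.21 against SUI (adjusted p = 0.513).

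Complex V makes ATP from the proton gradient. Its 6 members had log2 fold changes from 0.20 to 0.42 with stimulation (median 0.31). Of these, 2 of 6, Atp5f1c and Atp5po, did not overlap with SUI (9.52% of all genes). Atp5f1b stood at 1030.2, 2395 and 2482 CPM in blank, 2119, 2298 and 2591 in SUI and 2908, 2572 and 3035 in stimulated muscle. Stimulated replicate 2 lay just below SUI replicate 3, so the groups overlapped, with 0.28 ± 0.32 (adjusted p = 0.892). Atp5mc1, a precursor of the membrane ring that the proton flow turns, stood at 72.9, 171 and 178 CPM in blank, 124, 152 and 185 in SUI and 210.5, 182 and 193 in stimulated muscle, with 0.35 ± 0.32, and 0.22 without SUI 1. Its row overlaps another of the same symbol on the opposite strand, and without a stated strand setting their reads cannot be told apart.

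Atp5pb, part of the stalk that holds the enzyme's head still, stood at 766, 405 and 397 CPM in blank, 316, 394 and 445 in SUI and 485, 406 and 449.9 in stimulated muscle. Blank 1 was the highest of the 9 libraries, and the log2 fold change of SUI over blank was -0.44 ± 0.29. Without blank 1 it was -0.049, and without blank 1 and SUI 1 it was 0.065.

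The balance among the 5 complexes was compared across groups. For each complex the mean log2 CPM relative to all members was taken, with the mean of 9 libraries set to 0 and the 2 low rows, Uqcrb and Cox7a1, left out. Group means in SUI and stimulated muscle lay between -0.03 and 0.10 for all 5 complexes. Complex III was at 0.10 ± 0.02 (SD, n = 3) in SUI and 0.05 ± 0.02 in stimulated muscle. In blank it was at -0.16 ± 0.40, and without blank replicate 1 at 0.08. These balances were compared without a test.

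A second scale, added after the data were seen, avoids the TMM factors. Summed over the 36 members, the share of counts outside the mitochondrial genome was 0.998%, 1.65% and 1.56% in blank, 1.47%, 1.48% and 1.5% in SUI, and 1.69%, 1.74% and 1.73% in stimulated muscle. SUI and stimulated libraries did not overlap, and blank 2 and 3 lay between them. The same order of SUI below stimulated held for each complex, from 0.141% to 0.16% against 0.178% to 0.18% in complex II and from 0.642% to 0.676% against 0.726% to 0.766% in complex V. Set against the fibre markers, the groups overlapped: members gave 7.57 to 9.38 counts per 100 fibre marker counts in SUI and 8.51 to 9.22 in stimulated muscle. The highest of these 6 values was that of SUI replicate 1.

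**Figure D4:**
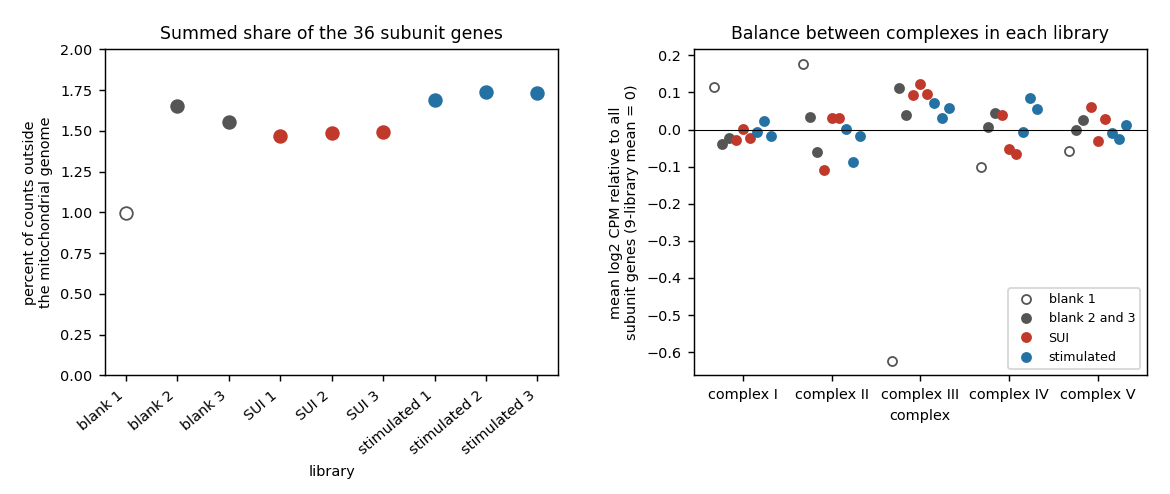
Left, share of the counts outside the mitochondrial genome taken by the 36 subunit genes, in percent, for each library; right, mean log2 CPM of each complex relative to all members (Uqcrb and Cox7a1 left out), 1 point per library. Stimulated libraries sit at 1.69% to 1.74% and SUI libraries at 1.47% to 1.5%, and only complex III of blank 1 lies far from 0.

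Other genes of the pathway were taken from lists chosen with earlier results of these data known. Of 38 tested subunit genes outside the 36 members, 37 were positive with stimulation (52.6% of all genes), with a median of 0.39. Of the 38, 29 did not overlap with SUI (9.52% of all genes) and 9 had an unadjusted p under 0.05 and were higher (5.23%). Without SUI replicate 1, 36 were positive and the median was 0.28. None passed edgeR's adjusted test, with a lowest adjusted p of 0.5. Uqcrq, a small subunit of complex III, stood at 60.4, 103 and 102 CPM in blank, 71.9, 65.0 and 94.9 in SUI and 138, 129 and 132 in stimulated muscle, with 0.78 ± 0.25, and had that lowest adjusted p. Atp5me, a small membrane subunit of complex V, stood at 21.1, 33.4 and 32.1 CPM in blank, 25.1, 25.5 and 31.0 in SUI and 45.0, 45.1 and 38.3 in stimulated muscle, with 0.65 ± 0.21 (adjusted p = 0.507). Both were higher in all 3 stimulated libraries than in the other 6.

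Assembly factors help to build the complexes and are not part of them. Of 37 tested, 27 were positive with stimulation (52.6% of all genes), with a median of 0.09. In 1 of 37 the stimulated libraries lay wholly above SUI (9.52% of all genes). This was Coa6, a copper-handling factor of complex IV assembly (0.40 ± 0.22, and 0.24 without SUI 1). Without SUI replicate 1, 15 of 37 were positive and the median was -0.047, and without stimulated replicate 1, 18 were positive and the median was -0.0038. The 10 tested transcripts of the mitochondrial genome were all positive (median 0.29), with 2 of 10 not overlapping (9.52% of all genes). Without SUI replicate 1 their median was 0.14 with 9 of 10 positive. Against blank they were negative in 10 of 10 for SUI (median -1.08), and without blank replicate 1 in 9 of 10 (median -0.14).

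Regulators of mitochondrial genes had no common direction, with 8 of 18 positive with stimulation (52.6% of all genes, median -0.10). In 4 of 18 every stimulated library lay below every SUI library (9.28% of all genes), and in 2 of 18 above (9.52%). Ppargc1a, the coactivator known for driving mitochondrial biogenesis, stood at 14.7, 6.17 and 7.66 CPM in blank, 4.46, 9.13 and 11.5 in SUI and 15.4, 9.03 and 11.7 in stimulated muscle, with overlap between groups and 0.52 ± 0.41. Without SUI 1 this was 0.22. Perm1, a muscle regulator acting with it, stood at 131, 114 and 50.9 CPM in blank, 12.2, 48.5 and 57.0 in SUI and 108, 89.5 and 101 in stimulated muscle. Its stimulated libraries lay above all SUI libraries, by 1.35 ± 0.52 (edgeR adjusted p = 0.552).

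Carriers and coupling proteins of the mitochondrial membranes were positive in 9 of 12 (52.6% of all genes), and in 6 of 12 without SUI replicate 1. In 4 of 12 every stimulated library lay above every SUI library (9.52% of all genes), and in 1 of 12 below (9.28%). Ucp3, the muscle uncoupling protein, went the other way, at 88.0, 214 and 222 CPM in blank, 302, 636 and 273 in SUI and 139, 33.8 and 96.2 in stimulated muscle. Every SUI library lay above every stimulated one, with a log2 difference between stimulated and SUI muscle of -2.17 ± 0.57 (edgeR adjusted p = 0.417). Ckmt2, the mitochondrial creatine kinase of muscle, stood at 1335, 833 and 741 CPM in blank, 654, 801 and 997 in SUI and 1305, 1036 and 1157 in stimulated muscle, with 0.51 ± 0.28 (adjusted p = 0.707).

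Markers of other cells were read in the same comparison, where 52.6% of all genes tested were positive. In every list edgeR called 0 of the markers. Fibro-adipogenic progenitor markers were positive in 10 of 10 tested with stimulation (median 1.52, lowest adjusted p 0.29), or in 8 of 10 without stimulated replicate 2 (median 0.85), and their 11 genes summed to 1685 to 2143 CPM in SUI and 1932 to 5732 CPM in stimulated muscle. Endothelial markers were positive in 5 of 7 (lowest adjusted p 0.571) and summed to 209.6 to 262 CPM in SUI and 293 to 371 CPM in stimulated muscle, without overlap. Fibre markers were positive in 7 of 7 (median 0.16), but in 3 of 7 without SUI replicate 1 (median -0.025), and summed to 102770 to 176900 CPM in SUI and 144850 to 183660 CPM in stimulated muscle. Slow fibre markers summed to 5654 to 12080 and 7528 to 13196 CPM. Fast fibre markers were positive in 5 of 5, but in 1 of 5 without SUI replicate 1. Leukocyte markers were positive in 4 of 7, and in 2 of 7 without stimulated replicate 2. They summed to 117 to 195 CPM in SUI and 69.8 to 372 CPM in stimulated muscle. Smooth muscle, adipocyte and satellite cell markers were positive in 5 of 5, 4 of 5 and 3 of 3. In every list each gene found was above 0 in at least 1 library. Their part in the result on the subunit genes was not tested.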

How the data were processed

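RNA of 9 pubococcygeus libraries was analysed, grouped by sample titles (library names call the SUI group sham). Bowtie2, RSEM 1.3.1, DESeq2 1.4.5 and the build mRatBN7.2 stand in the submitters' processing notes. No source used here gives the strand setting or the annotation. The authors deposited expected counts as whole numbers, used here as they stand, and FPKM values scaled by gene length and library size.

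Counts were filtered with filterByExpr, leaving 16256 genes, and scaled by TMM. All 9 libraries entered one robust quasi-likelihood fit and F test in edgeR 4.0.16 (R 4.3.3), with Benjamini-Hochberg adjustment over all genes at 0.05. SE is the log2 fold change over the square root of F. The script was checked on simulated data.

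The members and all gene lists were chosen with earlier results of these data known. Members with values per library are the 5 with the smallest p in each comparison, the highest and lowest FPKM of each complex, Cycs, and the isoforms Cox6a2 and Cox7a1 with their partners. From each other list at most 4 genes by smallest p and Ppargc1a could be named. Cox5a, Uqcrfs1 and Cyc1 were named after their values were seen. RefSeq (GRCr8) gave neighbours and promoters only. The 10 motifs were first searched in longer windows, and the shorter window and the choice of what to capitalise followed from seeing those counts. The limit of 10 CPM, the 2-fold and 1.25-fold bands, the share outside the mitochondrial genome and the ratio to fibre markers were also chosen after seeing the data.

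Alternatives were other scalings (DESeq2 size factors, library totals, TMM without mitochondrial transcripts), no filter or a mean CPM of 1, DESeq2 1.42.0, limma 3.58.1 (voom with sample weights, and log2 FPKM with pseudocounts of 1 and 0.1), the 6 libraries compared, a replicate block, removal of a length trend, Ndufa4 in complex I, and leaving out libraries. Added after seeing the data were the same for supporting genes and lists, another row for Uqcrb, leaving out the 2 low members, and other scales for the overlap count.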

Additional observations from a re-analysis of the deposited data

How the results depend on the processing

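In every alternative fit 0 members were called. All 36 were tested except with a mean CPM of 1, where 35 were tested and Uqcrb was left out. Members positive with stimulation over SUI stayed at 34 to 36, with medians from 0.19 to 0.44, and stimulated over blank gave 27 to 36 with medians from 0.20 to 0.47. For SUI over blank, members positive ranged from 5 (without blank replicate 1) to 28 (FPKM with a pseudocount of 1), with medians from -0.09 to 0.32. When libraries were left out, the highest count was 25 (without blank 1 and SUI 1). Causes of the following changes were not tested.

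Genes called were 0 for SUI over blank, 2 for stimulated over SUI and 1 for stimulated over blank. DESeq2 called 176, 208 and 21. In stimulated over SUI, voom with sample weights called 48, library totals 1, and both FPKM fits, the 6 libraries compared and the fit without blank 1 and SUI 1 called 0. In stimulated over blank, FPKM with a pseudocount of 1, the 6 libraries compared and the fit without blank 1 and SUI 1 called 0. Leaving out 1 library gave 0 to 1, 0 to 3 and 0 to 1. Members wholly above SUI were 27 on library totals and 17 to 31 with 1 library left out, and members wholly above blank in SUI were 0 to 7.

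Replicate numbers were not used as pairs in the main fit. Same-numbered deviations correlated from -0.31 to 0.12 over genes, and different-numbered ones from -0.25 to 0.29. With 3 libraries per group these values cannot show whether the numbers pair libraries. With the replicate block 1 gene was called in stimulated over SUI and 0 in stimulated over blank, the median of members was 0.35 with stimulation over SUI, and Cox7a1 stood at 0.072.

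The complex V median was 0.46 and 0.45 on FPKM (pseudocounts 0.1 and 1) in SUI over blank. In stimulated over blank it was 0.22 with voom weights, 0.19 without blank 1 and SUI 1, and 0.17 to 0.62 with 1 library left out.

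Among alternative values of named members, 39 changed sign and 378 did not in SUI over blank, 6 and 411 in stimulated over SUI, and 17 and 400 in stimulated over blank. In SUI over blank, FPKM with pseudocounts 0.1 and 1 gave 0.077 and 0.076 for Cox5b, 0.12 and 0.12 for Cycs, 0.16 and 0.16 for Ndufa1, 0.082 and 0.082 for Ndufa4, and 0.073 and 0.073 for Sdha. Library totals gave 0.011 for Cox5b, 0.11 for Ndufa1, 0.038 for Ndufa4 and 0.037 for Sdha. Without blank 1 and SUI 1, values were -0.054 for Atp5mc1, 0.065 for Atp5pb, 0.00060 for Ndufa5, 0.0081 for Ndufb5, 0.052 for Sdha and 0.27 for Uqcrb. Voom gave -0.038 for Atp5mc1, -0.0072 for Ndufv2 and 0.15 for Uqcrb. Ndufv2 was also -0.0082 with DESeq2 size factors, -0.0083 with DESeq2, -0.12 with the length trend removed and -0.020 with a mean CPM of 1. With 1 library or both blank 1 and SUI 1 left out, ranges were -0.61 to 0.065 (Atp5pb), -0.41 to 0.0081 (Ndufb5), -0.26 to 0.052 (Sdha), -0.051 to 0.45 (Atp5f1b), -0.18 to 0.33 (Atp5mc1), -0.049 to 0.31 (Cox4i1), -0.16 to 0.88 (Cox7a1), -0.13 to 0.027 (Ndufa1), -0.063 to 0.27 (Ndufa9), -0.095 to 0.11 (Ndufv2), -0.51 to 0.27 (Uqcrb) and -0.061 to 0.41 (Uqcrc1).

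In stimulated over SUI, voom gave 0.13 for Cox7a1, leaving out 1 library -0.29 to 0.49, and FPKM -0.22 and -0.22 for Cycs. In stimulated over blank, the length trend removed gave -0.19 for Cox6a2, -0.022 for Ndufa4, -0.13 for Ndufb5 and -0.35 for Uqcrb. Voom gave 0.11 for Atp5pb and 0.13 for Ndufa5. Without blank 1 and SUI 1, Atp5pb was 0.16, Cycs 0.0074 and Ndufa5 0.20. Ndufa5 was 0.024 on library totals and 0.029 and 0.028 on FPKM. With the same libraries left out, ranges were -0.39 to 0.16 (Atp5pb), -0.21 to 0.20 (Ndufa5) and -0.15 to 0.43 (Uqcrb).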

Other observations

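Rows under neighbouring symbols lay where RefSeq places missing or low members, and were chosen after their values were seen. The row called Uqcrbl1 lies between Sdr9c7 and Mterf3 on chromosome 7, as Uqcrb does in RefSeq. It stood at 638, 112 and 119 CPM in blank, 92.3, 111 and 127 in SUI and 156, 142 and 142 in stimulated muscle, so blank 1 was 5.51 times the mean of blank 2 and 3. The log2 fold change of this row was -1.39 ± 0.59 for SUI over blank (edgeR unadjusted p = 0.040, adjusted p = 0.591). It was -0.98 ± 0.58 for stimulated over blank and 0.41 ± 0.58 for stimulated over SUI, where the groups did not overlap. Values of this row without blank 1 are not given here. A row called Ndufa10l1 on chromosome 9 lies beside Or6b2, as Ndufa10 does in RefSeq, and stood at 98.3, 175 and 165 CPM in blank, 143, 188 and 182 in SUI and 215, 159 and 195 in stimulated muscle. Its log2 fold change over SUI was 0.15 ± 0.26, with overlap. A row called Cox7a2l2 on chromosome 8 lies beside Tmem30a and Filip1, as Cox7a2 does in RefSeq, and stood at 41.5, 106 and 104 CPM in blank, 83.6, 104 and 103 in SUI and 132, 142 and 129.7 in stimulated muscle. Its stimulated libraries lay above the other 6, with an edgeR log2 fold change over SUI of 0.47 ± 0.32 (adjusted p = 0.769). Whether these rows hold the genes that RefSeq places there was not tested.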
